A study of Mus musculus with 6 samples.

Results

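The genes described here encode the proteins of the mitochondrial ribosome that carry Mrpl or Mrps symbols. They were chosen by symbol, with earlier results of these data known. Every entry of the deposited count table named Mrpl or Mrps followed by a number and at most 1 letter was taken. This gave 78 genes, 0.289% of the genes in the table, and all 78 were among the 16190 genes that could be tested. Of these, 51 encode proteins of the large subunit, 26 encode proteins of the small subunit and 1, Mrps36, encodes a protein that is no longer counted as part of the ribosome. Mrps18a and Mrps30 are counted with the large subunit, where their proteins sit. The genes lie on 17 chromosomes, with 11 of them on chromosome 11.

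The mitochondrial ribosome descends from that of bacteria and translates the few proteins encoded in mitochondrial DNA, all of them subunits of the respiratory chain and of ATP synthase. Its RNA comes from mitochondrial DNA, whereas its proteins are encoded in the nucleus, made in the cytosol and imported. Some of these proteins have bacterial counterparts, and others were added in the evolution of mitochondria.

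RNA of cells labelled as bone marrow mesenchymal stromal cells, the support cells of bone and marrow, was sequenced in 6 libraries, 3 labelled Hes1 KO and 3 labelled wild type (WT). All animals were on a C57BL/6 background. In the Hes1 KO group a floxed allele of Hes1, a transcriptional repressor that acts downstream of Notch, was combined with Prx1Cre, whose Cre is driven in limb bud mesenchyme. The labels say knockout but the protocols name heterozygous floxed mice, so how many alleles were deleted is unclear from the sources used here, as is the age of the animals. The labels do not say that each library is a different animal, so the p-values measure only the spread between these libraries, part of which may be technical. The sex of the animals is not labelled, and the libraries differed in transcripts of the sex chromosomes within and across the groups. Xist, made from the inactive X of females, was at 1221, 11.01 and 1004 CPM in Hes1 KO replicates 1 to 3, against 3.10 and 71.9 CPM in WT replicates 2 and 3. The Y-linked Ddx3y was at 1.27, 61.9 and 0.146 CPM in Hes1 KO, against 204.6 and 42.2 CPM in WT. The part of sex in the results was not tested.

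The Hes1 KO libraries held 20563116 to 22131465 counts, and WT replicates 2 and 3 held 5812598 and 12109170. WT replicate 1 held 66167 counts and was kept apart, so all comparisons are of 3 Hes1 KO with 2 WT libraries unless stated. Levels are given as scaled CPM, counts relative to a library's total (CPM) after correction by edgeR's TMM factors, which ranged from 1.05 to 1.26 in Hes1 KO and were 1.37 in WT replicate 2 and 0.445 in WT replicate 3. Hes1 itself had 185, 220 and 255 counts in Hes1 KO libraries, against 310 and 345 in WT replicates 2 and 3, and fell by 2.55 on the log2 scale (SE 0.31, adjusted p = 0.0294 in edgeR after Benjamini-Hochberg adjustment). The stromal label was not borne out by the defining markers: the 16 stromal genes made up 0.00827% to 0.00860% of all counts in the Hes1 KO libraries, against 0.00790% and 0.00302% in WT, and Prrx1, whose promoter drives the Cre, had 0 to 2 counts in every library.

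Other cell types moved with the group. Of all counts, 5.01%, 13.3% and 6.09% went to the 16 neutrophil markers in Hes1 KO, against 1.57% and 0.0373% in WT, with none at 0. The share of the 14 macrophage markers was 1.01%, 2.003% and 1.12% in Hes1 KO, against 0.205% and 0.0174% in WT, and 4 of them had 0 counts in WT replicate 2. Most of that share in Hes1 KO was Lyz2, with 176395, 388034 and 193823 counts, against 9281 and 622 in WT. All 11 of these markers that were tested were higher in Hes1 KO, against 50.7% of all genes tested, but C1qa had only 7, 14 and 11 counts there. The 14 B cell markers summed to 0.104% to 0.182% in Hes1 KO, against 0.577% and 0.315% in WT, and the 14 T and NK cell markers stayed under 0.01% in each of these libraries. Globin genes took 39.9% and the 14 other erythroid markers 2.93% of WT replicate 3, against at most 0.263% and 0.104% of any Hes1 KO library and 0.000568% and 0.0730% of WT replicate 2. The part of these cells in the results below was not tested, and in bulk RNA a change in cell number cannot be told apart from a change in RNA per cell.

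The stretches before the start sites are shown first, because these genes are spread over the genome and their promoters are a feature that the choice by symbol did not use. RefSeq promoter windows of GRCm38.p6 (250 bases before the start and 50 after) were matched by symbol for 69 of the 78 genes, among them all 15 genes that rose as described below. The 150 bases just before the start are printed 5′ to 3′ for 5 genes, 3 that rose (Mrpl44, Mrps12, Mrps14) and 2 that did not pass the test (Mrpl45, Mrps22), chosen to show windows with and without matches. Capitals mark matches, on either strand, to the NRF1 motif (GCGC, any base, then TGCGC), the ETS motif CCGGAAG (bound by GABP), the YY1 motif AAGATGGC and the CCAAT box.
Mrpl44 (chr1:79775868-79776017, plus strand): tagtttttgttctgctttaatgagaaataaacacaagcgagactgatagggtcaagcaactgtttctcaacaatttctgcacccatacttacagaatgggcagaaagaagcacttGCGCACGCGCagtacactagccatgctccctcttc
Mrps12 (chr7:28741822-28741971, minus strand): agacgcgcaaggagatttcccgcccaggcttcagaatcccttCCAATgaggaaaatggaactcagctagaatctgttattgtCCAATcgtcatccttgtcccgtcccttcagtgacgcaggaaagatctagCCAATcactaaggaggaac
Mrps14 (chr1:160195065-160195214, plus strand): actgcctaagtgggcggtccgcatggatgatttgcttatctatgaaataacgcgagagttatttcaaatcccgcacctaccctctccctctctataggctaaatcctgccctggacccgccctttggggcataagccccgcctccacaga
Mrpl45 (chr11:97315566-97315715, plus strand): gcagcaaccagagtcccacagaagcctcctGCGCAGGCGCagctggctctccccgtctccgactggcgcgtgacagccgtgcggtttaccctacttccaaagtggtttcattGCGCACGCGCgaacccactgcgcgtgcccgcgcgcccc
Mrps22 (chr9:98601680-98601829, minus strand): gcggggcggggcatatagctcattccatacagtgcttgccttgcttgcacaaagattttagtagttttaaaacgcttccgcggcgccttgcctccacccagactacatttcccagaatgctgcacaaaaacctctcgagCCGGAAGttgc

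In these stretches Mrpl44 holds 1 NRF1 match, Mrps12 holds 3 CCAAT boxes, Mrps14 holds no match, Mrpl45 holds 2 NRF1 matches and Mrps22 holds 1 ETS match. Over the whole windows of 300 bases, searched on both strands, the NRF1 motif was in 13 of 69 (18.8%), against 6.69% of the 18623 windows of all genes in the table and 8.5% of those of coding genes. The ETS motif was in 25 (36.2%), against 12.2% of all and 15% of coding windows. The YY1 motif was in 12 (17.4%), against 3.49% and 3.9%. The CCAAT box was in 27 (39.1%), against 37.6% and 38.2%, and the CREB motif TGACGTCA in 2 (2.9%), against 2.3% and 2.79%.

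Motifs that Hes1 is known to bind were counted in the same windows. The N box CACNAG was in 30 of 69 (43.5%), against 42.3% of all windows and 41.7% of those of coding genes. The class C site CACGCG, which can lie within the reverse complement of the NRF1 motif, was in 12 (17.4%), against 12.5% and 15.3%. The E box CACGTG was in 5 (7.25%), against 8.33% and 9.12%. At least 1 NRF1, ETS or YY1 match was in 42 of the 69 windows, 11 of the 15 genes that rose and 31 of the 54 that did not pass, and the median log2 fold change was 0.78 with such a match and 0.69 without. These are matches of letters, not shown sites. By the gene spans of GENCODE M21, a start of another coding gene within 1000 bases on the opposite strand, facing away, was found for 18 of the 78 genes (23.1%), against 8.39% of 16466 coding genes, and for 2 of the 15 that rose. Pairs whose annotated spans overlap at their starts were not counted.

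As a group, the mitochondrial ribosomal protein genes stood higher in Hes1 KO. Their summed level was 2191, 2380 and 2090 scaled CPM in Hes1 KO (mean 2221 ± 147 SD, n = 3), against 1094 and 1524 in WT (mean 1309 ± 304 SD, n = 2), so the groups did not overlap and the means differed by a ratio of 1.7. Without Mrpl33, the gene with the widest difference, the means were 2094 in Hes1 KO and 1288 in WT, and their ratio was 1.63.

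**Figure D1:**
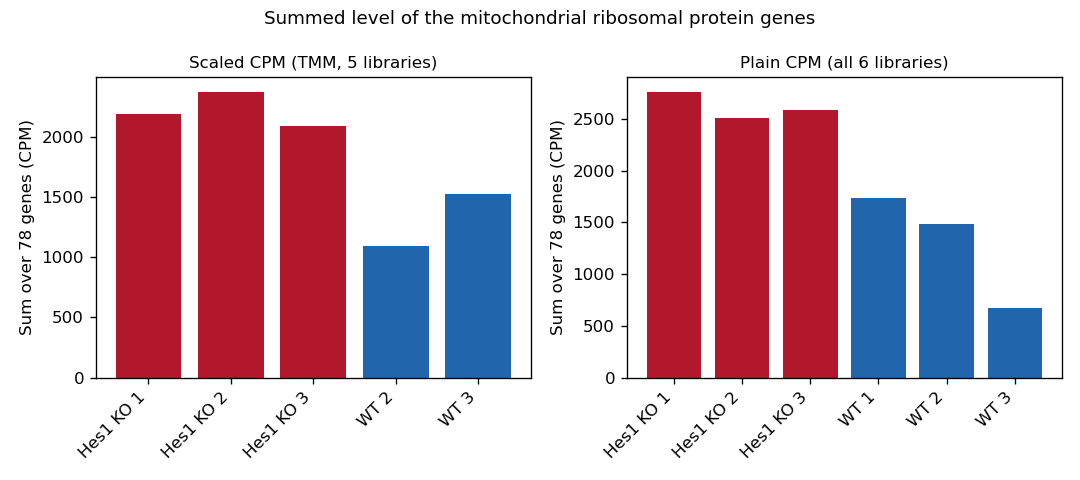
Summed level of the 78 genes in each library, as scaled CPM in 5 libraries (left) and as plain CPM in all 6 (right), with 1 bar per library. Every Hes1 KO bar is above every WT bar in both panels, with 2090 to 2380 against 1094 and 1524 scaled CPM.

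Plain CPM, without the TMM factors, gave the same order of the groups: 2764, 2506 and 2586 in Hes1 KO, against 1738, 1488 and 677 in the 3 WT libraries, by replicate number. The value of WT replicate 1 rests on 115 counts (exact 95% interval 1435 to 2086, counting error only). The scaling set the order of the WT libraries, with WT replicate 3 above WT replicate 2 for 62 of the 78 genes in scaled CPM and below it for 75 of 78 in plain CPM. All 3 Hes1 KO libraries were above both WT libraries for 66 genes in plain CPM, against 35.1% of all genes tested.

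Gene by gene, each was tested by edgeR's quasi-likelihood test over the 16190 genes that passed its filter on low counts, and a gene is said to have risen or fallen at an adjusted p under 0.05. All 78 passed the filter. Of these, 15 rose (19.2%) and 0 fell, while 7.44% of all genes tested rose and 8.09% fell. The log2 fold change was above 0 in 75 of 78, against 50.7% of all genes tested (49.3% were below 0), with a median of 0.74 (quartiles 0.42 and 0.97), or 1.67-fold, against a median of 0.02 for all. At an unadjusted p under 0.05, 45 were higher, against 19.0% of all genes tested. Among the 63 that did not pass, 60 were higher and 23 had an adjusted p under 0.1.

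The groups did not overlap for 59 genes, all 15 that rose included, with every Hes1 KO library above both WT libraries, against 31.2% of all genes tested. They did not overlap in the other direction for 2, Mrpl23 and Mrpl3, against 24.5% of all. For the remaining 17 the groups overlapped. The calls depended on the libraries used. With any 1 Hes1 KO library left out, 0 members passed, as did 0 of all genes. At an unadjusted edgeR p under 0.05, 19 or 20 members were higher, against 3954 to 4143 of 15159 to 15268 genes in either direction. With all 6 libraries 0 passed either, and 7 members were higher at that p, against 2200 of 14756 genes in either direction. Without WT replicate 2, 19 members rose, against 14.6% of all genes then tested, and without WT replicate 3, 51 did, against 17.1%. In each alternative tried 0 fell, and the median stayed between 0.56 and 1.23. Under the other scalings 73 to 77 of the 78 were higher; scaling by library size alone also raised the median of all genes to 0.44, and the members' median was then 0.79 above it.

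**Figure D2:**
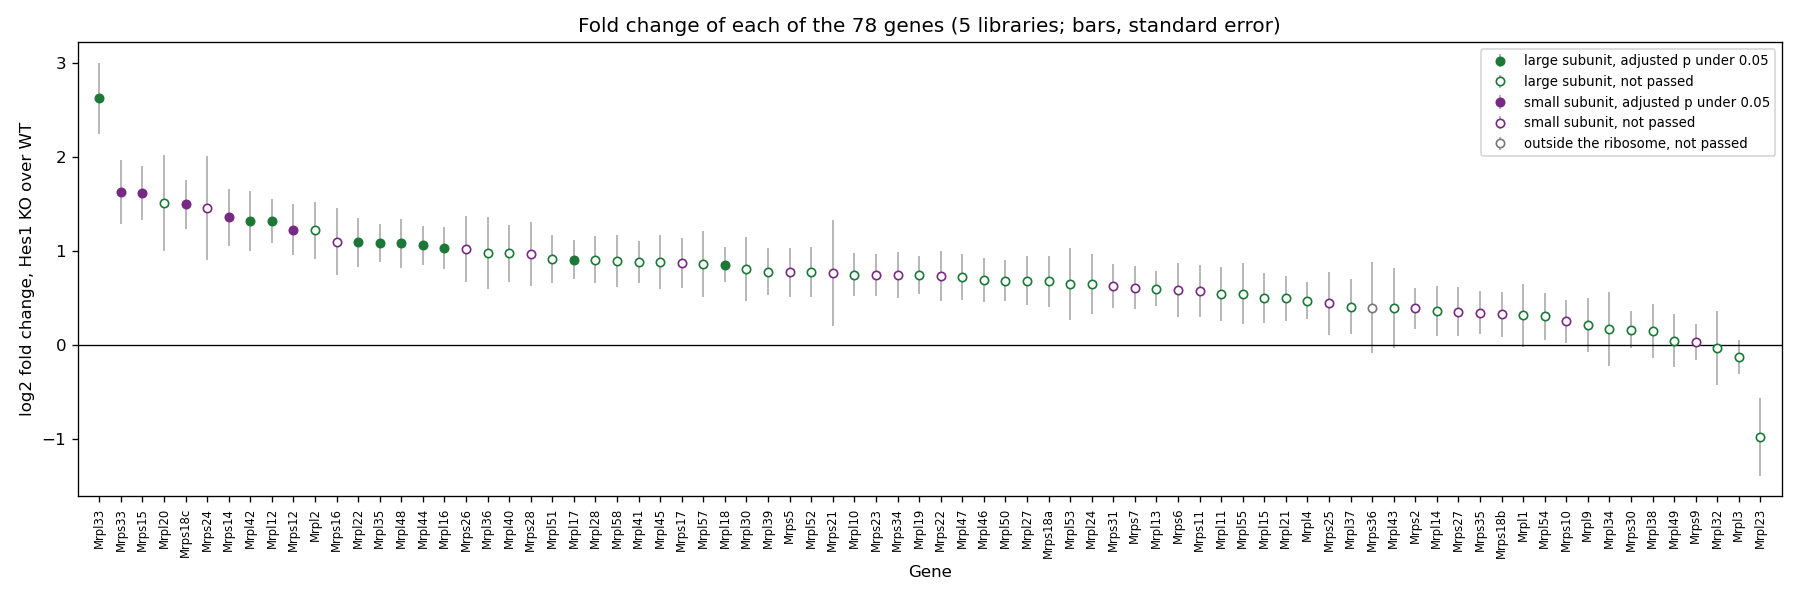
Log2 fold change of Hes1 KO over WT for each of the 78 genes in falling order, with bars of 1 SE from edgeR, and filled points for an adjusted p under 0.05. The points run from 2.62 (Mrpl33) to -0.98 (Mrpl23), and 75 lie above 0.

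The values were set beside those of other genes of like length. The members are short: their exons (GENCODE M21) had a median of 1380.5 bases, against 3278 for the 12604 coding genes tested, and short genes in general were higher in Hes1 KO. Exon bases count each base in any annotated transcript of a gene, so they can exceed the length of the transcript that is made. For a like set, chosen after the data were seen, other coding genes at 5 to 100 scaled CPM were taken, a range that holds 75 of the 78. Over all 7883 such genes, 10.2% rose, 5.8% fell, 60.9% were higher and 39.3% had groups apart with Hes1 KO higher. Of the 52 members with under 2000 exon bases, 11 rose (21.2%), 98.1% were higher and 39 had groups apart, with a median log2 fold change of 0.71. Of the 1799 other coding genes of that length and level, 19.7% rose, 1.45% fell, 81.7% were higher and 60.6% had groups apart with Hes1 KO higher, with a median of 0.69. The share that rose and the median were thus near those of other short genes.

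Among genes with more exon bases the values lay further apart. Members in this class may be made mainly as shorter transcripts, which was not tested, and lengths within the class were not matched. Of the 26 members with 2000 or more exon bases, 4 rose (15.4%), 92.3% were higher and 20 had groups apart, with a median of 0.76. Of the 6084 other coding genes of that length and level, 7.46% rose, 7.08% fell, 54.8% were higher and 33% had groups apart with Hes1 KO higher, with a median of 0.09. Across members, Spearman's rho of the log2 fold change with exon length was -0.13 (78 genes), and across coding genes tested it was -0.31 (12604 genes); these genes share libraries and are not independent replicates. Genes under 2000 exon bases took 23.6%, 35.4% and 25.6% of coding counts in Hes1 KO, against 12.4% in WT replicate 2 and 53.3% in WT replicate 3 (16.9% with globin genes left out).

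**Figure D3:**
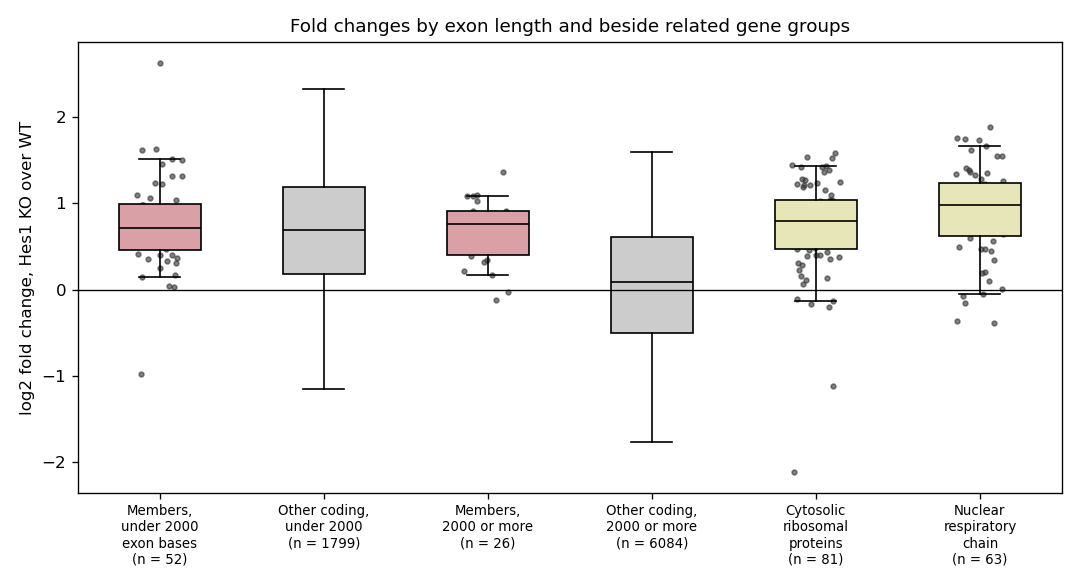
Log2 fold change of Hes1 KO over WT for members and other coding genes (5 to 100 scaled CPM) split at 2000 exon bases, and for 2 related groups. Boxes are quartiles with the median, whiskers run from the 5th to the 95th percentile, and points are single genes. The medians of members and other coding genes are 0.71 and 0.69 under 2000 bases, and 0.76 and 0.09 at 2000 or more.

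Members of both subunits rose. In the large subunit 10 of 51 rose (19.6%) and 48 were higher, with a median log2 fold change of 0.72. In the small subunit 5 of 26 rose (19.2%) and 26 were higher, with a median of 0.75. Of all genes tested 7.44% rose, and of other coding genes at 5 to 100 scaled CPM with under 2000 exon bases 19.7% did. The large subunit summed to 1564, 1716 and 1494 scaled CPM in Hes1 KO, against 791 and 1100 in WT. The small subunit summed to 626, 663 and 596 scaled CPM in Hes1 KO, against 302 and 424 in WT.

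Proteins with a bacterial counterpart, as ribosomal protein nomenclature names them, and those particular to mitochondria both stood higher. Those with a counterpart rose in 7 of 30 genes of the large subunit (23.3%, median 0.70). In the small subunit they rose in 4 of 16 (25%, median 0.82). Those particular to mitochondria rose in 3 of 21 of the large subunit (14.3%, median 0.77). In the small subunit they rose in 1 of 10 (10%, median 0.68). The difference between these classes, and that from the 7.44% of all genes that rose, was not tested.

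Mrpl33, a small protein of the large subunit, had the largest difference. It stood at 101.8, 183.4 and 95.1 scaled CPM in Hes1 KO, against 18.8 and 22.3 in WT, a log2 fold change of 2.62 (SE 0.38, adjusted p = 0.0300 in edgeR after Benjamini-Hochberg adjustment). Hes1 KO replicate 2 was the highest, and the lowest Hes1 KO library was far above both WT libraries. Of its 478 exon bases, 107 are shared on the same strand with the predicted gene Gm43809, and reads there may be split or left out by the authors' counting.

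Mrpl12 is the counterpart of the bacterial stalk protein L7/L12, which draws translation factors to the ribosome, and it has also been found on the mitochondrial RNA polymerase. It had 50.3, 48.5 and 42.2 scaled CPM in Hes1 KO, against 21.9 and 15.8 in WT, and rose by 1.32 on the log2 scale (SE 0.24, adjusted p = 0.0317 in edgeR after Benjamini-Hochberg adjustment). The rest of the stalk did not pass. Mrpl10, which anchors the stalk, had 38.8, 48.5 and 41.0 in Hes1 KO, against 21.9 and 29.0 in WT, and Mrpl11, at its base, had 27.1, 23.4 and 22.8 in Hes1 KO, against 12.4 and 21.0 in WT. Their log2 fold changes were 0.75 and 0.55, with groups that did not overlap.

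Around the exit tunnel, through which the new chain leaves toward the inner membrane, Mrpl22 and Mrpl44 rose and Mrpl45 and Mrpl23 did not pass. These are examples, not a full list of the proteins there. Mrpl22, the counterpart of a protein lining the tunnel, had 11.4, 12.9 and 10.2 scaled CPM in Hes1 KO, against 5.56 and 5.21 in WT (log2 fold change 1.09, SE 0.26). Mrpl44, a protein with a fold like RNase III, had 24.7, 22.7 and 25 in Hes1 KO, against 11.3 and 11.9 in WT (log2 fold change 1.06, SE 0.21). The groups did not overlap for either gene, but with WT replicate 1 added the log2 fold change was -0.07 for Mrpl22 and 0.45 for Mrpl44. Mrpl45, which ties the ribosome to the inner membrane, had 29.98, 29.1 and 27.1 in Hes1 KO, against 11.5 and 19.7 in WT (log2 fold change 0.88). Mrpl23 lies at the mouth of the tunnel and was lower, with 0.967, 1.17 and 1.22 in Hes1 KO, against 1.64 and 2.79 in WT (log2 fold change -0.98, SE 0.41). That value rests on few counts, 27, 26 and 31 in the Hes1 KO libraries, against 13 and 15 in the WT libraries.

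The mitochondria-specific Mrpl42 and Mrpl48 and the conserved Mrpl35, proteins of the large subunit, were also among the larger increases. Mrpl42, particular to mitochondria, had 37.9, 33.7 and 33.7 scaled CPM in Hes1 KO, against 9.74 and 18.4 in WT (log2 fold change 1.32, SE 0.32). Mrpl35, counterpart of bacterial L35, had 30.3, 29.7 and 28.6 in Hes1 KO, against 13.2 and 14.7 in WT (log2 fold change 1.09, SE 0.20). Mrpl48, of the central protuberance, had 14.0, 17.4 and 14.2 in Hes1 KO, against 6.32 and 7.99 in WT (log2 fold change 1.08, SE 0.26). Each had its groups apart, and the WT libraries differed most for Mrpl42. The other increases in this subunit were Mrpl16, Mrpl17 and Mrpl18, with log2 fold changes of 1.04, 0.91 and 0.86. All 15 adjusted p lay between 0.0300 and 0.0479 (edgeR with Benjamini-Hochberg adjustment).

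In the small subunit, Mrps15, Mrps18c, Mrps14 and Mrps12, all with bacterial counterparts, rose, and so did Mrps33, which is particular to mitochondria. Mrps15 binds the ribosomal RNA early in assembly in bacteria and had 45.9, 47.3 and 41.6 scaled CPM in Hes1 KO, against 10.9 and 18.4 in WT (log2 fold change 1.62, SE 0.29). Mrps14 had 46.6, 54.2 and 44.7 in Hes1 KO, against 13.7 and 24.2 in WT (log2 fold change 1.36, SE 0.30). Both WT libraries were well below the Hes1 KO libraries, and WT replicate 3 was the higher of the pair in both genes. Mrps12 is the counterpart of S12, a protein of the decoding centre, and had 17.3, 20.0 and 15.6 in Hes1 KO, against 6.32 and 8.74 in WT (log2 fold change 1.23, SE 0.27, and 0.10 with WT replicate 1 added). Mrps33 was one of the scarcest members at 3.76, 4.85 and 3.93 in Hes1 KO, against 1.39 and 1.30 in WT (log2 fold change 1.63, SE 0.34).

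The 3 relatives of bacterial S18 took different values. Mrps18c, in the small subunit, had 35.8, 44.1 and 30.3 scaled CPM in Hes1 KO, against 11.5 and 14.5 in WT, and rose by 1.5 on the log2 scale (SE 0.26, adjusted p = 0.0312 in edgeR after Benjamini-Hochberg adjustment). Mrps18a, in the large subunit, had 22.1, 21.3 and 20.4 in Hes1 KO, against 10.2 and 16.4 in WT (log2 fold change 0.68, SE 0.27). Mrps18b, in the small subunit, had 11.4, 9.96 and 10.7 in Hes1 KO, against 8.09 and 8.92 in WT (log2 fold change 0.33, SE 0.24). Mrps18a and Mrps18b did not pass, although their groups did not overlap, and Mrps18b was at -0.09 with counts thinned to the depth of WT replicate 2. Differences among the 3 were not tested. Mrps18c shares 174 exon bases on the same strand with the predicted gene Gm43511.

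**Figure D4:**
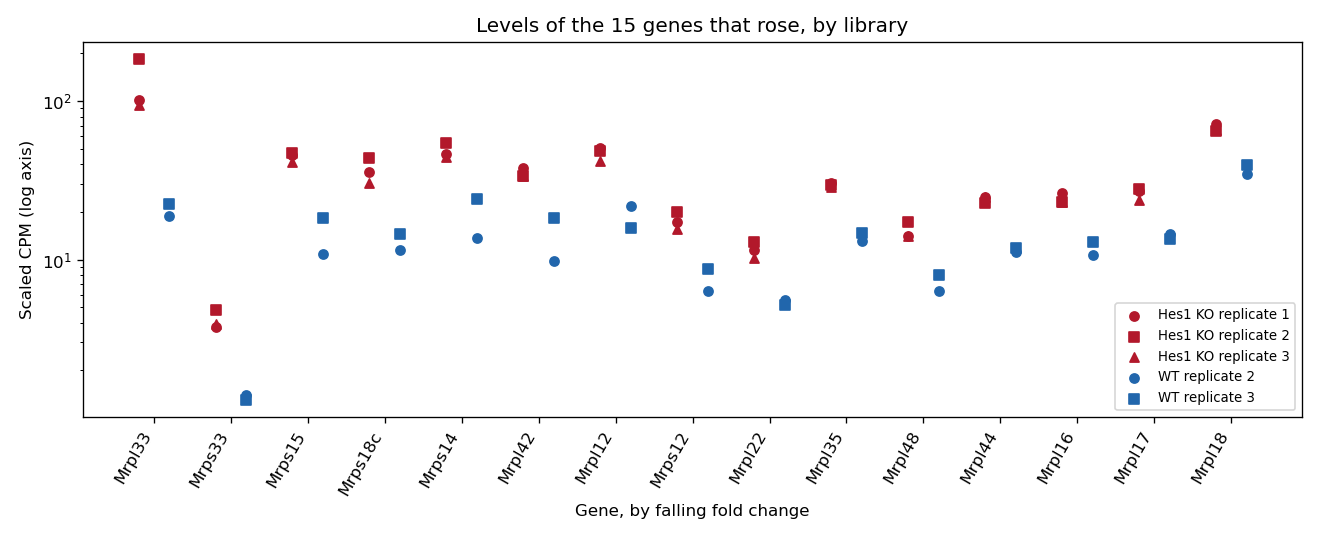
Scaled CPM (log axis) of the 15 genes that rose, by falling fold change, with 1 point per library, Hes1 KO left of WT for each gene. Every Hes1 KO point is above both WT points of its gene, and the levels run from 1.30 (Mrps33, WT replicate 3) to 183.4 (Mrpl33, Hes1 KO replicate 2).

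Other members with known roles did not pass. Mrpl58, which is related to release factors and can free stalled chains, had 27.6, 34.1 and 25.5 scaled CPM in Hes1 KO, against 12.5 and 18.8 in WT (log2 fold change 0.89, adjusted p = 0.0749 by edgeR with Benjamini-Hochberg adjustment). Mrps16, mutated in a human respiratory chain disease, had 22.8, 30.6 and 26.1 in Hes1 KO, against 8.22 and 16.6 in WT (log2 fold change 1.10, adjusted p = 0.0817 by edgeR with Benjamini-Hochberg adjustment). Mrps34, which keeps the small subunit stable in mice, had 19.2, 21.3 and 18.8 in Hes1 KO, against 9.99 and 13.6 in WT (log2 fold change 0.75). For these 3 the groups did not overlap.

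Mrps2, counterpart of a bacterial small subunit protein, had 30.1, 23.2 and 25.6 scaled CPM in Hes1 KO, against 19.5 and 20.6 in WT (log2 fold change 0.39). Mrpl37 and Mrps30, related proteins of the large subunit, overlapped between the groups. Mrpl37 had 37.4, 35.4 and 38.3 in Hes1 KO, against 19.7 and 36.1 in WT, and Mrps30 had 34.5, 32.5 and 28.7 in Hes1 KO, against 30.5 and 26.4 in WT. Their log2 fold changes were 0.41 and 0.17, against -0.05 for Mrpl37 with WT replicate 1 added and -0.07 for Mrps30 with thinned counts. Mrpl3, a protein beside the peptidyl transferase centre, was slightly lower, with 42.6, 37.6 and 40.3 in Hes1 KO, against 44.8 and 42.8 in WT (log2 fold change -0.12, SE 0.18). Its sign turned with scaling by library size alone (0.25), with WT replicate 1 added (0.29) and with no filter on low counts (0.05).

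Among the most abundant members by CPM, Mrpl18 rose and Mrpl24, Mrpl30 and Mrpl20 did not pass, all of them counterparts of bacterial proteins of the large subunit. Mrpl18 had 71.4, 64.4 and 65.9 scaled CPM in Hes1 KO, against 34.9 and 39.4 in WT, but had 34 of the 115 member counts of WT replicate 1, and its log2 fold change was -0.85 with that library added. Mrpl20 had 56.7, 76.5 and 50.6 in Hes1 KO, against 10.4 and 32.7 in WT (log2 fold change 1.51, SE 0.51). Its fold was among the largest, and the spread between its WT libraries was also among the largest. Mrpl24 had 59.0, 58.9 and 56.5 in Hes1 KO, against 24.5 and 49.6 in WT, and Mrpl30 had 55.7, 68.7 and 47.5 in Hes1 KO, against 22.4 and 42.9 in WT.

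At the low end, Mrps36, a subunit of the 2-oxoglutarate dehydrogenase complex, had 20, 16 and 15 counts in Hes1 KO, against 5 and 2 in WT, and its groups overlapped (log2 fold change 0.40, SE 0.48). Mrps6 had 7.02, 6.24 and 6.84 scaled CPM in Hes1 KO, against 3.92 and 5.02 in WT (log2 fold change 0.58), and 464 of its 846 exon bases are shared on the same strand with Slc5a3 and Gm49711. RefSeq names pseudogene copies of Mrpl23 and Mrps36, among others. Whether reads of such copies affected the low values of Mrpl23 and Mrps36 was not tested. Exons of 26 members overlap those of another gene on either strand. Of these 5 rose, with a median log2 fold change of 0.67, against 10 of the 52 with no overlap, with a median of 0.76.

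Levels per kilobase use the same exon bases, taken over all annotated transcripts of a gene. Per kilobase of exon, on the scaled CPM scale, levels had a median of 15.6 in Hes1 KO (quartiles 8.64 and 27.4) and of 9.44 in WT (quartiles 5.78 and 15.9). They ran from 0.962 (Mrps36) to 265.3 (Mrpl33) in Hes1 KO, and from 0.716 (Mrps36) to 43.0 (Mrpl33) in WT. The order of the genes was much the same in both groups (Spearman's rho 0.938 over 78 genes measured in the same libraries, a description).

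**Figure D5:**
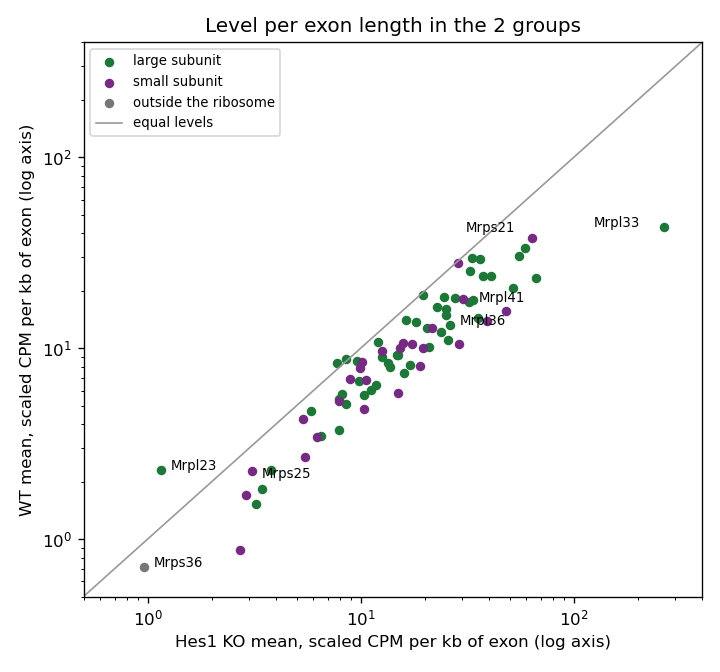
Mean level per kilobase of exon (scaled CPM per kb, log axes) in Hes1 KO (horizontal) and WT (vertical) for each of the 78 genes, with the line of equal levels. Most points lie below the line, Mrpl33 far to the right at 265.3 against 43.0, and Mrpl23 above it at 1.16 against 2.29.

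Within the groups the members' spread had lower medians than that of all genes tested. No set of genes at the members' level was taken for this comparison. Their range over the 3 Hes1 KO libraries had a median of 0.25 on the log2 scale (0.42 for all genes tested), and the absolute difference between the WT libraries had a median of 0.48 (0.66 for all). The highest library was Hes1 KO replicate 2 for 37 genes, Hes1 KO replicate 1 for 27, Hes1 KO replicate 3 for 7, WT replicate 3 for 6 and WT replicate 2 for 1. WT replicate 2 was the lowest for 61 genes. The genes most raised in WT replicate 3 over WT replicate 2, named after their values were seen, were Mrps21 (1.89 on the log2 scale), Mrps24 (1.79) and Mrpl20 (1.61), and the most lowered was Mrpl1 (-0.99).

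Of the 5 ribosomal proteins that carry other names, 3 rose (60%, against 7.44% of all genes tested). These 5 were not matched to other genes in exon length or level, and 19.7% of other coding genes at 5 to 100 scaled CPM with under 2000 exon bases rose. In WT replicate 1, left out here, Chchd1 had 0 counts, Aurkaip1 12 and Dap3 9, where 1 count is 15.1 CPM. Chchd1 rose by 1.58, Aurkaip1 by 1.52 and Dap3 by 0.78 on the log2 scale (adjusted p = 0.0294, 0.0414 and 0.0448 in edgeR after Benjamini-Hochberg adjustment). Ptcd3 stood at 49.7, 32.6 and 41.0 scaled CPM in Hes1 KO, against 58.7 and 35.9 in WT, and Gadd45gip1 at 17.8, 16.5 and 17.4 in Hes1 KO, against 8.73 and 22.1 in WT.

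Lists of the machinery around the ribosome had lower medians than the members. These lists were not matched to the members in exon length or level. Of 26 assembly factors 1 rose (3.85%, against 7.44% of all genes tested), and the list's median was 0.41. That gene was Rbfa, which matures the small subunit RNA (1.46). Of 17 factors of mitochondrial translation 2 rose (11.8%), the RNA stabiliser Slirp (1.83) and the elongation factor Tsfm (1.17), with a median of 0.21. Of 20 mitochondrial tRNA synthetases 0 rose and 1 fell (5%, against 8.09% of all genes tested), Fars2 (-1.27), with a median of 0.11. At an unadjusted edgeR p under 0.05 were 5 of the 20, against 6442 of 16190 genes tested. Of 16 factors of mitochondrial transcription and biogenesis 0 rose and 2 fell (12.5%), with a median of -0.14. The 2 were the coactivator Ppargc1a (-3.53) and Gabpb1, a subunit of GABP (-1.29). Ppargc1a had 0.681, 0.314 and 1.26 scaled CPM in Hes1 KO, against 9.74 and 7.81 in WT.

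The other ribosome and the respiratory chain stood beside the members. Of 81 cytosolic ribosomal protein genes 4 rose (4.94%, against 7.44% of all genes tested) and 75 were higher, with a median of 0.79. Of 63 nuclear genes of respiratory chain subunits 14 rose (22.2%) and 58 were higher, with a median of 0.98. Ndufv2 rose by 1.55 and Sdhd by 1.33. The mitochondrial ribosomal RNAs mt-Rnr1 and mt-Rnr2 did not pass, at -1.26 (SE 0.70) and -0.69 (SE 1.24), in libraries selected for polyadenylated RNA. Of 20 proliferation genes 3 rose (15%), with a median of 0.81. These values are log2 fold changes from the same test, these lists too were chosen with earlier results known, and differences between lists were not tested. Nor were they matched to the members in exon length or level.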

How the data were processed

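The deposited table holds whole-number counts of reads per gene and library, made by the authors with featureCounts, per the name of the table. The build GRCm39, edgeR and limma are named in the submitters' processing notes; the sources used here name no aligner, annotation or strand setting, so a gene and its antisense partner cannot be told apart. The kit was stranded and selected polyadenylated RNA, per the labels' protocols.

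The deposited counts entered edgeR 4.0.16 in R 4.3.3: filterByExpr (minimum count 10), TMM scaling, the quasi-likelihood test with the legacy option off, and Benjamini-Hochberg adjustment over all genes tested. Standard errors are approximate, being the log2 fold change over the root of its F statistic. The 2 WT libraries in the comparison and the depth of WT replicate 2 (a member's median was 91 counts there, against 619.5 to 732.5 in Hes1 KO libraries) limit the precision. Alternatives used limma 3.58.1 (voom), DESeq2 1.42.0, other scalings and filters, and left out each library.

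Members and lists were chosen with earlier results of these data known. Genes named are the 12 largest changes that passed, the 6 highest and 4 lowest by CPM, a set fixed by role and, of each other list, up to 4 that passed; Mrpl16, Mrpl17, Ptcd3, Gadd45gip1, Mrps21, Mrps22, Mrps24, Mrpl1, Mrpl36, Mrpl54 and Mrpl55 fall outside that rule. Exon lengths and overlaps came from GENCODE M21 and promoters from RefSeq, both of GRCm38; positions on GRCm39 and transcripts of mitochondrial protein genes were not used here. No batch is given in the labels.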

Additional observations from a re-analysis of the deposited data

Results flagged for a closer look

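WT replicate 1, which the comparison leaves out, had counts for 31 of the 78 members and 0 for the other 47, where a count of 0 allows up to 45.3 CPM (3 counts of that library's total, counting error only). In 7 members its level stood above that of each other library, the lower bound of its Wilson 95% interval included. The share of all genes above that bound was not taken, and the intervals were not corrected for the 78 members screened. Whether the 7 are more than in other genes is thus unknown. Mrpl18 was at 513.9 CPM there, from 34 of 115 member counts (29.6%). Mrpl36 was at 136 CPM and Mrpl37 at 105.8 CPM. Mrps12 and Mrpl54 were at 75.57 CPM each, Mrpl22 at 60.45 CPM and Mrpl55 at 45.34 CPM, from 3 to 5 counts each. Without Mrpl18 the members summed to 1224 CPM in that library. The cause was not tested.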

How the results depend on the processing

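The count of members that rose was 15 of 78. All genes that passed, in either direction, were 2513 of 16190, and 7.44% of all rose. Counts of all genes below also take both directions, those of members only the higher. Both the member and the all-gene count were 0 with all 6 libraries, with scaling by library size alone and at a threshold of 0.01. At an unadjusted edgeR p under 0.05 there were 7 members and 2200 of 14756 genes with all 6 libraries. Scaling by library size alone gave 30 members and 3679 of 16190 genes, and the main fit 45 members and 6442 of 16190. DESeq2 called 21 members and 4997 genes (12.7% of all rose), limma-voom 6 and 1440 (4.34%), and the legacy option 7 and 1710 (4.88%). Thinning each library to the depth of WT replicate 2 left 7 members and 1827 genes (5.84% of all rose). By construction it leaves fewer counts. Leaving out 1 library gave 0 to 51 members and 0 to 6210 genes. Both were 0 without any 1 Hes1 KO library (3954 to 4143 genes at an unadjusted p under 0.05), 19 and 4809 without WT replicate 2, and 51 and 6210 without WT replicate 3, where the lone WT library is assumed to vary like the others. The median of the members was 1.23 with library size alone, and 0.56 to 0.99 with 1 library left out. The median of all genes was then 0.44, and 0.12 and 0.10 without WT replicates 2 and 3.

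Replicate numbers 2 and 3 occur in both groups, but the labels do not say that they pair libraries. With the replicate number as a block, 0 members and 0 genes passed. At an unadjusted edgeR p under 0.05, 8 members were higher, against 2770 of 16190 genes in either direction. Deviations from the group means correlated at 0.03 for number 2 and 0.207 for number 3, and at 0.164 for Hes1 KO replicate 1 with WT replicate 2. With 2 WT libraries their deviations mirror each other, so these values cannot show whether libraries pair.

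With WT replicate 1 added, 7 of the 78 members turned from higher to lower and 2 from lower to higher, among them, of the genes named by rule, Mrpl18 (-0.85), Mrpl22 (-0.0662), Mrpl37 (-0.0484) and Mrpl3 (0.29). Mrpl3 also turned with library size alone (0.25) and with no filter (0.0503), and Mrps18b (-0.0942) and Mrps30 (-0.0695) with thinning. For named genes 419 other values kept their direction and their side of the threshold, 117 no longer passed and 12 newly passed. A call could be lost only by a gene that had passed. Each of the 15 members that rose passed in 5 to 11 of the 18 alternatives. Except where stated, the cause was not tested.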
